A study of Manis javanica with 3 samples.

Results

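Carbonic anhydrases are zinc enzymes that turn carbon dioxide and water into bicarbonate and a proton, and back. Their isoforms differ in where they work: some lie free in the cytosol, one kind sits in the mitochondrion, one is secreted into saliva, several are held at the cell surface, and the carbonic anhydrase-related proteins keep the fold but have lost zinc-binding residues and with them the activity. In the digestive tract these enzymes are known for supplying protons to the acid pump of the stomach, bicarbonate to the secretions of ducts and mucous surfaces, and bicarbonate to the first steps of urea and glucose synthesis in liver.

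Transcriptomes of liver, salivary glands and small intestine from 1 adult female Malayan pangolin (Manis javanica), an ant- and termite-eating mammal, were compared to look for genes of digestion in an insect feeder. The animal was a wild one that died during rescue and received no experimental treatment, and its exact age was not given in the sources used here. Each tissue gave 1 RNA-seq library, so no difference below has a replicate check, and all intervals cover counting error only. The members were all genes whose entry in the NR protein database contains the words carbonic anhydrase and that appear in the expression tables. The rule found 16 of the 24220 genes, and every one of the 16 annotated carbonic anhydrases was in the tables. They were 5 cytosolic forms (CA1, CA2, CA3, CA7 and CA13), 1 mitochondrial form (CA5A), 1 secreted form (CA6), 5 membrane forms (CA4, CA9, CA12, CA14 and a CA15-like gene), and 4 related proteins (2 gene models of CA8, CA10 and a CA11-like gene). Names follow the NR entry. The symbol in the Swiss-Prot entry differed from it for 6 of the 14 members that had one, and 5 members carried the Swiss-Prot symbol CA1. The annotation gave the carbonate dehydratase term of the Gene Ontology to 13 members and its zinc-binding term to 12, and both CA8 models carried both terms although CA8 is known to lack the activity. Positions are those of the deposited tables, on scaffolds whose genome build was not named. Levels are given as FPKM, the fragments per kilobase of transcript scaled to 1000000 mapped fragments, and the reads (fragments) behind them are given as deposited. FPKM values are per length, but that of CA2 is high for its listed length, so its level against other genes also depends on the length used.

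Small intestine gave 10158924 reads, salivary glands 8318686 and liver 14568778. A count of 0 allows up to 3 reads, or 0.295, 0.361 and 0.206 reads of every 1000000 in the same order. The library labelled small intestine went against its label. In it, 3 of 4 listed genes of gastric parietal cells exceeded an FPKM of 1. So did 10 of 11 gene models of gastric chief and surface cells. Among them, pepsin A (PGA, gene4646), a stomach protease, reached an FPKM of 94140. The exceptions, CBLIF (gene23731) and LIPF (gene6272), had 9 and 5 reads. Of 8 enterocyte markers, 2 exceeded an FPKM of 1 in that library. Lactase (LCT, gene16448) and the intestinal fatty acid-binding protein (FABP2, gene25406) were at 0 there. The highest was villin (VIL1, gene24763), an epithelial actin binder, with an FPKM of 24.0 against 25.7 and 21.2 in salivary glands and liver. It is called the small intestine library here only as its label gives it. Hepatocyte markers summed to an FPKM of 5796 in the liver library against 109 and 121 in small intestine and salivary gland libraries. They were led in liver by tyrosine aminotransferase (TAT, gene21751) with 4316. Of 8 salivary acinar markers listed, 5 were found, as 9 gene models. These summed to 135, 129 and 51.7 in small intestine, salivary glands and liver. Most of the small intestine sum came from DMBT1 models (gene8750, gene14819 and gene3018) with 49.7, 21.0 and 53.1 FPKM. In salivary glands these models had 0.392, 0.167 and 0.329. The water channel aquaporin 5 (AQP5, gene19292) had 2.29, 94.3 and 24.7 FPKM in small intestine, salivary glands and liver. PIP (newGene_7084) had 0.481, 28.0 and 0. Fewer cells of a type and less RNA per cell cannot be told apart in such bulk libraries.

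Carbonic anhydrase transcripts were most abundant in the small intestine library. The summed FPKM of the 16 genes was 171 there, 35.9 in salivary glands and 17.6 in liver, from 2074, 424 and 470 reads. An FPKM above 1, the level the study took as expressed, was reached by 10 members in small intestine, 6 in salivary glands and 5 in liver. Of all 24220 genes, 14392, 13631 and 13810 reached it in the same order. The small intestine count of the 16 members thus lay near the share of all genes, and the other counts lay below it. Only CA4, CA9 and the CA11-like gene passed an FPKM of 1 in all 3 libraries. In at least 1 library 12 members passed it, against 69.3% of all genes. CA1, CA7 and CA10 had no read in any library, as did 13.0% of all genes. Of the 13 members with reads, 9 were highest in small intestine, 2 in salivary glands and 2 in liver. CA14 was among the 9 with 2, 1 and 0 reads, and the same count over all genes was not made.

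**Figure D1:**
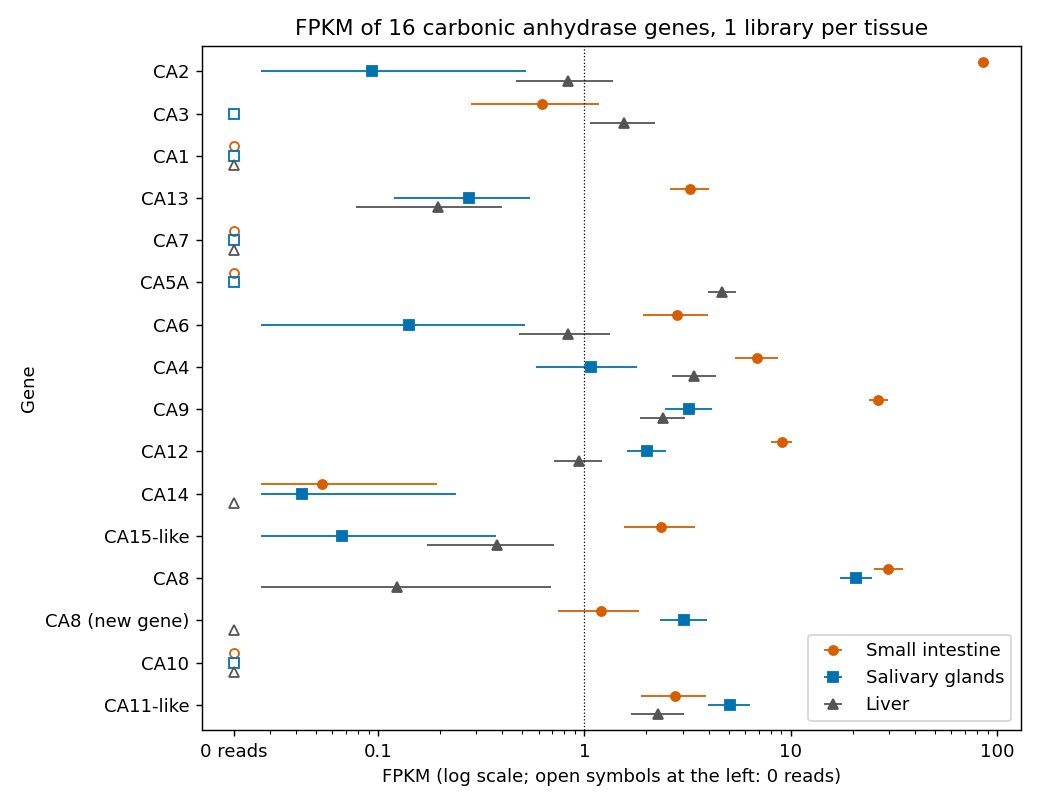
FPKM (log scale) of each of the 16 genes in the 3 libraries, with bars for the exact 95% Poisson counting interval, cut where it nears the symbols for 0 reads, open symbols for 0 reads and a dotted line at an FPKM of 1. CA2 stood at 85.8 in small intestine and below 1 in both other libraries, CA8 was high in small intestine and salivary glands, and CA5A had reads in liver alone.

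By the deposited FPKM, each library was led by a member of a different class. In small intestine CA2 was only 1.08 times CA8 by reads per listed kilobase, so its lead there depends on the length used. In the small intestine the cytosolic forms made up 52.4% of the summed FPKM and CA2 alone 50.1%, a share that was 26.4% by reads per listed kilobase of gene. In the salivary glands the related proteins made up 80.7%, with CA8 alone at 58.0%, and the cytosolic forms 1.03%. The share of CA8 there was 28.3% by reads and 53.4% by reads per listed kilobase. In the liver the membrane forms made up 40.5% and the mitochondrial CA5A 26.5%, the largest share of a single gene there. The counting intervals of CA5A and CA4 overlapped in liver, so the lead of CA5A was not beyond counting error.

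**Figure D2:**
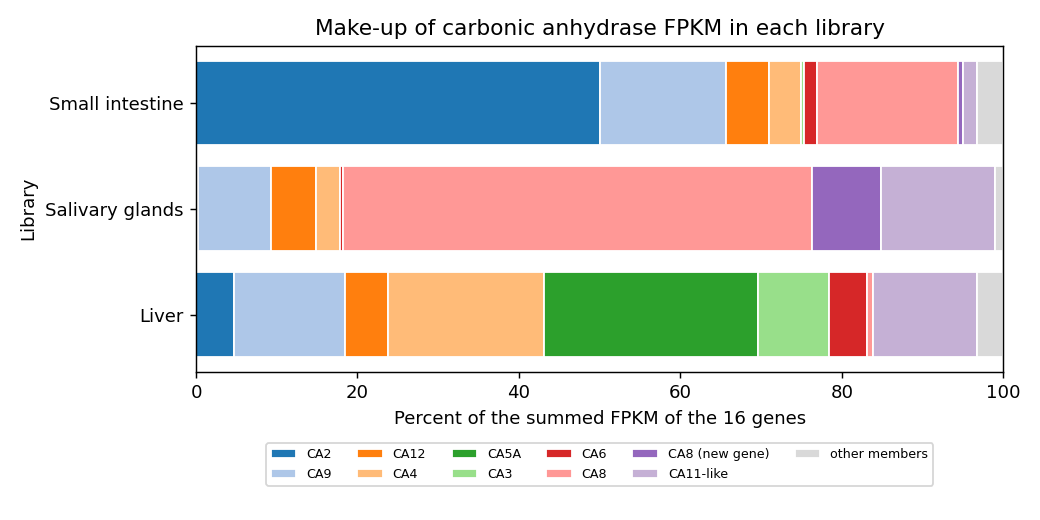
Percent of the summed FPKM of the 16 genes held by each gene in each library. CA2 fills 50.1% of the small intestine bar (26.4% by reads per listed kilobase), CA8 58.0% of the salivary gland bar and CA5A 26.5% of the liver bar.

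Among the cytosolic forms, CA2 is the fast, widely used enzyme that feeds acid- and bicarbonate-secreting cells. CA2 (gene13275) had an FPKM of 85.8 in small intestine, 0.0939 in salivary glands and 0.833 in liver, from 979, 1 and 15 reads. The counting intervals were 80.5 to 91.3, 0.00238 to 0.523 and 0.466 to 1.37, so small intestine stood apart from both others. The gastric parietal markers moved with it, summing to an FPKM of 1738, 2.49 and 0 in small intestine, salivary glands and liver, and their part in the CA2 level was not tested. With this level CA2 ranked 515th among the genes of the small intestine library. Its FPKM was 2.93 times what its reads and listed length of 4283 bases imply relative to the median gene in the small intestine library, whereas the other members with reads there lay within 0.794 to 1.16 times, and it was 3.70 and 2.98 times in salivary glands and liver. By reads per listed kilobase CA2 was 1.08 times CA8 in that library in place of 2.88 times by FPKM.

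CA13, another cytosolic form known from the gut, was also highest in small intestine, at a lower level. CA13 (gene13278) had an FPKM of 3.26 in small intestine, 0.276 in salivary glands and 0.195 in liver, from 87, 8 and 7 reads. Its intervals in salivary glands and liver overlapped. CA3, a slow enzyme best known from muscle, fat and liver, instead had its highest FPKM in liver. CA3 (gene13276) had an FPKM of 0.620 in small intestine, 0 in salivary glands and 1.55 in liver, from 9, 0 and 32 reads. Its intervals in small intestine (0.284 to 1.18) and liver (1.06 to 2.19) overlapped. Liver had the lowest sums of the markers of muscle and fat cells: skeletal muscle markers summed to an FPKM of 0.650 there against 27.2 and 29.8 in small intestine and salivary glands, and adipocyte markers to 5.05 against 9.55 and 24.3. The muscle sums rested mainly on creatine kinase (CKM, gene3407) with 24.8 in small intestine and on ACTA1 (gene18927) with 26.8 in salivary glands. The fat-droplet protein PLIN1 (gene3984) went the other way, with 3.88, 4.28 and 4.97 FPKM in small intestine, salivary glands and liver. The part of muscle and fat cells in the CA3 level was not tested. CA1 (gene13277), the abundant form of red blood cells and colon, and CA7 (gene2794), known from brain and muscle, were at 0 reads in each library. The red-cell anion exchanger SLC4A1 (gene20684) was also at 0 reads in all 3, and the highest erythroid marker was a beta-globin model (gene18135) with an FPKM of 3.82, 0 and 0.512 in small intestine, salivary glands and liver.

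CA2, CA3, CA1 and CA13 lay side by side on scaffold NW_016536831.1, with 0 other annotated genes between them. CA2 lay at 68737-84260 on the minus strand, CA3 at 96629-106393 on the minus strand, CA1 at 195159-202410 on the plus strand and CA13 at 228947-269454 on the minus strand. The gaps were 12.4, 88.8 and 26.5 kb, and the whole stretch spanned 201 kb. These neighbors did not share a pattern. CA2 and CA13, at the ends of the stretch, were highest in small intestine, and CA1 had no read. CA3 had its highest FPKM in liver, with an interval that overlapped that of small intestine.

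**Figure D3:**
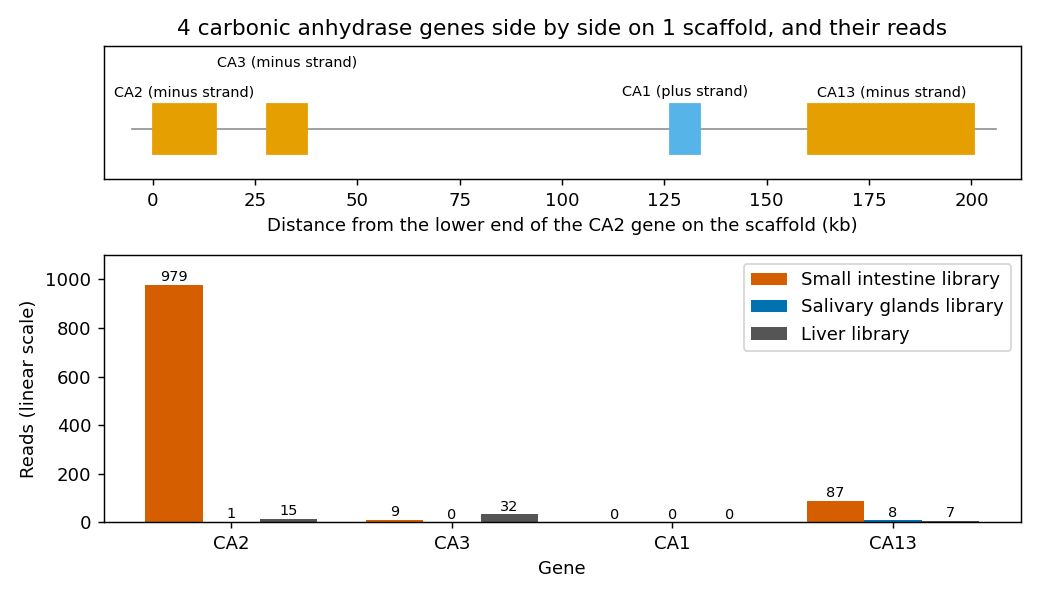
Upper part, position of CA2, CA3, CA1 and CA13 along their scaffold in kb from the lower end of CA2, colored by strand. Lower part, reads of the same genes in the 3 libraries on a linear scale, where CA2 had 979 reads in small intestine and no other gene of the 4 exceeded 87 in a library.

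The mitochondrial form CA5A, which provides bicarbonate inside the mitochondrion for urea and glucose synthesis, was read in liver alone. CA5A (gene1743, NW_016528153.1:210689-238110, minus strand) had an FPKM of 0 in small intestine, 0 in salivary glands and 4.67 in liver, from 0, 0 and 155 reads, with a liver interval of 3.96 to 5.46. It ranked 9145th in the liver library. Its locus overlapped that of BANP (gene1744), a nuclear matrix protein on the opposite strand, by 2991 bases, and the alignment took no account of strand; BANP had 121, 42 and 161 reads in small intestine, salivary glands and liver, and the part of that neighbor in the CA5A reads was not tested.

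The secreted form CA6 is the carbonic anhydrase of saliva. CA6 (gene14028, NW_016537568.1:7403-32052, minus strand) had an FPKM of 2.83 in small intestine, 0.142 in salivary glands and 0.830 in liver, from 32, 2 and 17 reads. The salivary gland library thus had the lowest FPKM of the 3 for this gene. Its counting interval of 0.0172 to 0.513 lay below the 1.93 to 3.99 of small intestine but overlapped the 0.484 to 1.33 of liver. Other salivary acinar genes were uneven in that library. Lactoperoxidase (LPO, gene8992), an enzyme of saliva, had an FPKM of 0.175 there, PIP one of 28.0 and aquaporin 5 one of 94.3. The part of the gland sampled was not given, and its part in the CA6 level was not tested.

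The membrane forms were highest in small intestine. CA9, a cell-surface enzyme of gastric and biliary epithelium that also rises in low oxygen, came first: CA9 (gene160, NW_016527321.1:536240-542078, minus strand) had an FPKM of 26.6 in small intestine, 3.22 in salivary glands and 2.42 in liver, from 361, 59 and 63 reads. CA12, which faces the extracellular space on secretory epithelia, had 9.07, 2.02 and 0.942 FPKM (gene12127, NW_016535667.1:38826-91991, minus strand; 301, 84 and 56 reads). CA4, which is tied to the membrane by a lipid anchor, had 6.90, 1.07 and 3.41 FPKM (gene21041, NW_016548829.1:123419-131743, plus strand; 71, 14 and 68 reads). For CA9 and CA12 the small intestine interval lay above both others, and so it did for CA4 (5.39 to 8.70, against 0.586 to 1.80 and 2.65 to 4.33). The gene similar to CA15, a lipid-anchored form, was one of the genes newly joined from the reads (newGene_6531) and had an FPKM of 2.35, 0.0672 and 0.376 in small intestine, salivary glands and liver, from 27, 1 and 9 reads. CA14 (gene878), a membrane-spanning form, had 2, 1 and 0 reads and overlapped APH1A (gene879), a gamma-secretase subunit on the opposite strand with 463, 1073 and 877 reads, by 1713 bases. Another 9 genes listed as responsive to low oxygen were found as 11 gene models, which summed to an FPKM of 339, 191 and 448 in small intestine, salivary glands and liver, with lactate dehydrogenase A (LDHA, gene16205) the highest at 103, 78.8 and 294. Their median was instead highest in small intestine, at 26.9 against 10.03 and 12.4. Of 10 models tested against salivary glands, 5 were higher in small intestine by 2-fold or more (20.5% of all genes) and 0 lower (17.0%). Against liver, 4 were higher (24.5%) and 1 lower (23.7%). NDRG1 (gene25621), a stress-responsive gene, had 67.8, 27.3 and 12.4 FPKM, the order of libraries that CA9 had. An EGLN3 model (newGene_10046) and ANKRD37 (gene23113) had this order too. The other EGLN3 model (gene25334) was highest in small intestine and lowest in salivary glands. VEGFA (gene18057) was instead highest in liver, with 14.99, 10.03 and 20.41 FPKM in small intestine, salivary glands and liver. So were PGK1 (gene1472) with 26.86, 15.8 and 31.1 and BNIP3 (gene25370) with 37.88, 32.96 and 56.03. The part of these genes in the CA9 level was not tested.

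The related protein CA8 is known as a partner of the inositol trisphosphate receptor, a calcium channel, and not as an enzyme. CA8 (gene24792) had an FPKM of 29.8 in small intestine, 20.8 in salivary glands and 0.124 in liver, from 152, 120 and 1 reads. The small intestine interval of 25.2 to 34.9 just missed the salivary gland interval of 17.3 to 24.9, and both lay far above the liver. A further gene model, joined from the reads (newGene_2693) and also matched to CA8, had 1.20, 3.06 and 0 FPKM, from 21, 60 and 0 reads. The first model lay at NW_016566233.1:5576-59860 and the other at NW_016531707.1:8630-26916, each the only gene of its scaffold, and whether they are pieces of 1 gene cannot be told from these tables. They differed in order between small intestine and salivary glands and shared the low liver level. The CA11-like gene (gene525), a secreted relative known from brain, had an FPKM of 2.76, 5.06 and 2.28 in small intestine, salivary glands and liver, from 32, 74 and 47 reads, and CA10 (gene23328), a relative known from brain, was at 0 reads in each library.

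Within a library, most members could not be ranked against the next one. In small intestine 7 of the 11 neighboring pairs had overlapping intervals, CA8 and CA9 among them, and the steps beyond counting error were from CA2 to CA8 (by the deposited FPKM, but 1.08 times by reads per listed kilobase), from CA9 to CA12, from CA4 to CA13 and from CA3 to CA14. In salivary glands 8 of 10 pairs overlapped, and the steps beyond it were from CA8 to the CA11-like gene and from CA4 to CA13. In liver all 10 pairs overlapped, from CA5A and CA4 at the top downward.

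To compare libraries, reads were scaled by TMM, a factor that sets the bulk of all genes level between libraries, and a gene with at least 10 reads over a pair was called at a ratio of 2-fold or more. Between small intestine and salivary glands, 10 members had enough reads and 9 were called, where 37.5% of all 17045 genes tested were called. Of these, 7 were higher in small intestine (20.5% of all genes) and 2 in salivary glands (17.0%). The median log2 ratio was 2.65 over the 10 members and -0.01 over all genes tested. Scaling by library size alone moved the median of all genes to -0.47 and the share of all calls that were higher in small intestine from 54.8% to 35.5%, and no member changed direction in this pair.

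CA2 had the widest difference of this pair, 1101-fold, but with 1 read in salivary glands its interval ran from 197 to 43520. The CA15-like gene was 30.4-fold higher in small intestine (5.003 to 1243), also on 1 salivary gland read, and CA6 18.0-fold (4.59 to 155) on 2. CA13 was 12.2-fold higher (5.94 to 29.2). The membrane forms CA9, CA4 and CA12 rested on more salivary gland reads than these genes and differed less. CA9 was higher by 6.88-fold (5.21 to 9.22), CA4 by 5.70-fold (3.19 to 10.9) and CA12 by 4.03-fold (3.15 to 5.19). The genes higher in salivary glands were both related proteins: the new CA8 model by 2.54-fold (1.52 to 4.40) and the CA11-like gene by 2.06-fold (1.34 to 3.22). The latter was not called when FPKM with 0.1 added were compared in place of TMM-scaled reads. CA8 itself was 1.42-fold higher in small intestine (1.11 to 1.82), a ratio below 2-fold.

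The single salivary gland read of CA2 can be set beside the stomach genes of the small intestine library. CA2 in salivary glands was at 0.110% of its small intestine FPKM. The proton pump subunits ATP4A (gene10658) and ATP4B (gene11562) were at 0.0877% and 0.195%, and pepsin A at 0.0762%. The other members with reads in both libraries and at least 10 over the pair were at 2.86% to 255%. The lowest of these, the CA15-like gene, also rested on 1 salivary gland read, and counting error does not set it apart from CA2. Passage of RNA or reads between the libraries was not tested.

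Between small intestine and liver, 12 members had enough reads and 10 were called, where 48.2% of all 17855 genes tested were called. Of these, 8 were higher in small intestine (24.5% of all genes) and 2 in liver (23.7%), with a median log2 ratio of 2.76 over the members and -0.06 over all genes tested. CA8 differed by 257-fold (45.5 to 10230), with 1 liver read, and CA2 by 110.5-fold (66.7 to 198). CA13 was 21.0-fold higher in small intestine (9.79 to 53.9), CA9 9.70-fold (7.41 to 12.9), CA12 9.10-fold (6.82 to 12.3), the CA15-like gene 5.08-fold (2.32 to 12.3) and CA6 3.19-fold (1.72 to 6.12). The new CA8 model was at least 11.8-fold higher, with the liver count of 0 set at 3 reads. In the other direction CA5A was at least 30.5-fold higher in liver and CA3 2.10-fold, with an interval of 0.979 to 5.003 that reached below 1. CA4 (1.77-fold higher in small intestine, 1.25 to 2.50) and the CA11-like gene (1.15-fold, 0.712 to 1.84) stayed under 2-fold, and the latter was slightly higher in liver (log2 ratio -0.03) with library size only. The 2 higher in liver became 1 under 6 of the alternatives, and the 8 became 5 with at least 50 reads.

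Between salivary glands and liver, 12 members had enough reads and 10 were called, where 47.7% of all 17583 genes tested were called. Here 4 were higher in salivary glands (23.2% of all genes) and 6 in liver (24.5%), and the median log2 ratio was -0.60 over the members and -0.05 over all genes tested. The 6 fell to 3 with an exact binomial test or FPKM with 1 added, and to 2 with at least 50 reads or edgeR's exact test, and the 4 fell to 2 with a 4-fold threshold, FPKM with 1 added or edgeR's exact test. The salivary glands were higher for CA8 by 181-fold (31.8 to 7195, with 1 liver read), for the new CA8 model by at least 30.1-fold, for the CA11-like gene by 2.37-fold (1.62 to 3.49) and for CA12 by 2.26-fold (1.59 to 3.23). The liver was higher for CA5A by at least 34.3-fold, for CA3 by at least 7.08-fold and for CA4 by 3.23-fold (1.80 to 6.21). It was also higher for CA2 by 9.96-fold (1.53 to 419), CA6 by 5.64-fold (1.34 to 50.4) and the CA15-like gene by 5.98-fold (0.829 to 262), each on 1 or 2 salivary gland reads, and the last interval reached below 1. CA13 and CA9 were higher in salivary glands by 1.72-fold (0.545 to 5.57) and 1.41-fold (0.972 to 2.04), and both intervals held 1. The 3 pairs share libraries, so their calls are not independent.

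**Figure D4:**
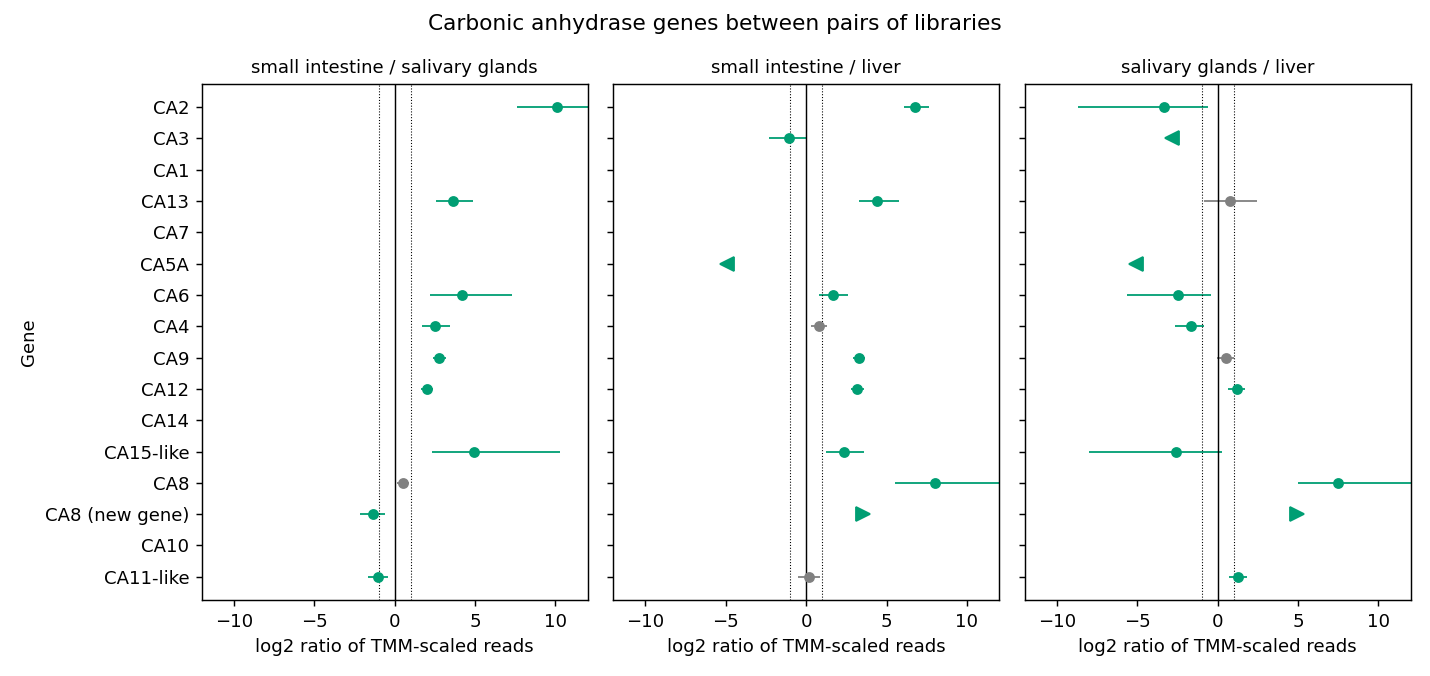
Log2 ratio of TMM-scaled reads for each member with at least 10 reads over a pair of libraries, with exact 95% counting intervals cut at the edges of the panel. Green marks ratios of 2-fold or more, gray marks smaller ones, and arrowheads mark lower bounds where 1 library had 0 reads; most points of the left and middle panels lie on the small intestine side.

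Carbonic anhydrases act together with the enzymes that consume bicarbonate and the carriers that move bicarbonate and protons. Of 35 such genes listed, 34 were found, as 43 gene models. An FPKM above 1 was reached by 25 models in small intestine, 23 in salivary glands and 15 in liver. Of all 24220 genes, 14392, 13631 and 13810 did so. Between small intestine and salivary glands 13 of 32 tested models were higher in small intestine (20.5% of all genes) and 9 in salivary glands (17.0%), with a median log2 ratio of 0.49 against -0.01 over all genes. Compared with liver, small intestine was higher for 17 of 34 (24.5%) and lower for 4 (23.7%), with medians of 1.12 and -0.06. Salivary glands were higher than liver for 18 of 34 (23.2%) and lower for 5 (24.5%), with medians of 1.36 and -0.05.

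Among the proton exporters, ATP4A and ATP4B, the subunits of the gastric proton pump, were highest in the small intestine library, as CA2 was. ATP4A had an FPKM of 1073 in small intestine, 0.941 in salivary glands and 0 in liver, and ATP4B had 652, 1.27 and 0. Of 9 proton exporter genes tested, 5 were higher in small intestine than in salivary glands (20.5% of all genes) and 2 lower (17.0%). Against liver 7 of 9 were higher (24.5%) and 1 lower (23.7%).

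Among the enzymes that use bicarbonate, the mitochondrial carbamoyl-phosphate synthase CPS1 (gene8833), the entry step of the urea cycle, was at 0, 0.0694 and 311 FPKM in small intestine, salivary glands and liver, from 0, 4 and 24315 reads. CPS1 was at least 4788-fold higher in liver than in small intestine, and like CA5A it was highest in liver. Of the 12 models of these enzymes, 2 were higher in liver than in small intestine by 2-fold or more (23.7% of all genes). These were CPS1 and pyruvate carboxylase (PC, gene11433, 3.55-fold), which starts glucose synthesis. As many, 2 models, were higher in small intestine (24.5%). The median log2 ratio of the 12 was 0.43, toward small intestine, against -0.06 over all genes tested. MCCC1 (gene1100), a subunit of the carboxylase of leucine breakdown, had 63.4, 41.6 and 44.9 FPKM, with no pair reaching 2-fold. Glutamine synthetase (GLUL, gene16231), listed beside carbonic anhydrases in nitrogen metabolism, had the highest FPKM of the list in small intestine and salivary glands, at 1096 and 3479, and 93.5 in liver. Of the 20 models of bicarbonate carriers, 6, 8 and 1 had more than an FPKM of 1 in small intestine, salivary glands and liver. Among all 24220 genes, 14392, 13631 and 13810 did.

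**Figure D5:**
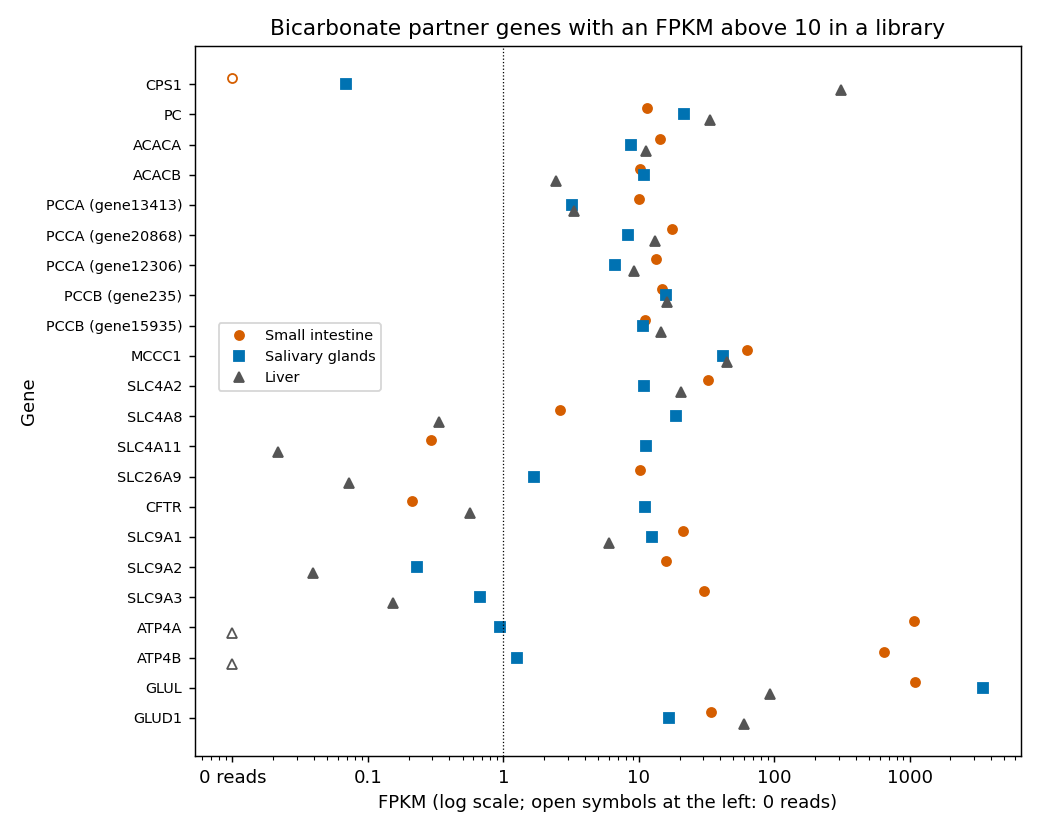
FPKM (log scale) of the 22 bicarbonate partner models that exceeded 10 in any library, with open symbols for 0 reads and a dotted line at an FPKM of 1. ATP4A and ATP4B stand at 1073 and 652 in small intestine, and CPS1 at 311 in liver.

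For the member with the highest FPKM in each library, the genes with the most similar values over the 3 libraries were found. The measure was the distance between log2 (FPKM + 1) values, which rests on 3 points. The distances from CA2 used its deposited FPKM, which is high for its listed length, so its nearest genes also depend on the length used. Nearest to CA2 were an annexin A10-like gene (gene22380, distance 0.57, with 63.5, 0 and 0.428 FPKM in small intestine, salivary glands and liver), cardiac troponin T (gene16510, 0.77) and chromogranin A (CHGA, gene20501, 0.83), a protein of hormone granules. Nearest to CA8 were TMEM125 (gene17960, 0.45), the epithelial trafficking protein RAB25 (gene16183, 0.48) and cytochrome P450 2S1 (gene1977, 0.52). Nearest to CA5A were a CYP1A2-like new gene (newGene_12373, 0.0048), the liver-derived factor LECT2 (gene3613, 0.011) and OIT3 (gene6960, 0.030), each at 0 in small intestine and salivary glands and at 4.69, 4.62 and 4.55 FPKM in liver.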

How the data were processed

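RNA from 1 library per tissue was selected for poly-A and sequenced on an Illumina HiSeq. The authors aligned reads with TopHat2 without regard to strand, joined new genes with Cufflinks and annotated genes with BLASTX. The deposited counts are whole reads (fragments) per gene, by a counting tool not given in the sources used here. The deposited FPKM were made by the authors from fragments, mapped fragments and transcript length. A deposited score, each count times 1 factor per library, was not used for results. The build of the scaffolds was not named, and no member's sequence was held in the files used here.

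Counts were scaled with TMM in edgeR 4.0.16 (R 4.3.3), with Python 3.11.15, pandas 2.3.3, numpy 2.4.6, scipy 1.17.1 and matplotlib 3.10.9. With 1 library per tissue there is no test between tissues. Ratios carry exact 95% Clopper-Pearson intervals, FPKM exact 95% Poisson intervals, and a count of 0 was set at 3. The procedure was tested on simulated Poisson counts, scored only on genes with many reads in both libraries. That simulation held no spread between animals and does not bear on members with few reads in a library. Members and lists were chosen with earlier results of these data known. Every member is named; of partners, the 2 with the highest FPKM per library and both proton pump subunits; of markers, the highest and those at 0, printed only where they stand beside a result. SLC4A1, CKM, ACTA1, PLIN1, NDRG1, VEGFA, PGK1, BNIP3, EGLN3, ANKRD37, DMBT1, PIP, CBLIF and LIPF were named after their values were seen. So were pyruvate carboxylase, aquaporin 5, lactoperoxidase and the pepsin A comparison. List genes were matched by product name, also chosen afterwards.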

Additional observations from a re-analysis of the deposited data

How the results depend on the processing

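No called member changed direction under any alternative, and 1 log2 ratio below the threshold did: the CA11-like gene, small intestine against liver, went from 0.20 to -0.03 with library size only. No paired analysis was possible because each tissue has 1 library, and leaving out a replicate was not possible either. Of 280 single log2 ratios under the alternatives, 261 stayed within their counting interval and 19 did not, 16 of these with ratios of FPKM or TPM and 3 with library size only. Counts of members higher in the small intestine than in the salivary glands stayed within 1.5 times of 7 throughout, and those higher in the salivary glands went from 2 to 1 with FPKM ratios and 0.1 added, and to 0 with 1 added, with a 4-fold threshold or with edgeR's exact test at an assumed biological coefficient of variation of 0.4. Between small intestine and liver, members higher in the liver went from 2 to 1 with FPKM and 1 added, at least 50 reads, a 4-fold threshold, an exact binomial test, edgeR's exact test, or a counting interval off 1, which was chosen after seeing the data, and those higher in the small intestine from 8 to 5 with at least 50 reads. Between salivary glands and liver, members higher in the salivary glands went from 4 to 2 with FPKM and 1 added, a 4-fold threshold or edgeR's exact test, and those higher in the liver from 6 to 3 with FPKM and 1 added or the exact binomial test, and to 2 with at least 50 reads or edgeR's exact test. Fewer genes pass a filter of 50 reads by construction, and the cause of the other changes was not tested. Members taken as expressed went to 5, 2 and 0 in the small intestine, salivary glands and liver with an FPKM above 5, and the liver count rose from 5 to 8 with an FPKM above 0.5, a TPM above 1 or at least 10 reads. The share of CA2 in the small intestine was 47.2% by reads, 63.5% without related proteins and new genes, and 26.4% by reads per listed kilobase, a measure chosen after seeing the data. The share of CA8 in the salivary glands was 28.3% by reads and 53.4% by reads per listed kilobase, and that of CA5A in the liver 33.0% by reads and 31.4% without related proteins and new genes.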
